A study of Homo sapiens with 4 samples.

Results

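The replication-dependent histone genes on the short arm of chromosome 6 were examined in peak lists from enhanced crosslinking and immunoprecipitation (eCLIP) of ZFR, which binds RNA through zinc fingers and carries a DZF domain. Members were the gene identifiers with at least 1 listed peak lying wholly between 26 and 26.3 Mb or between 27.75 and 27.87 Mb of chromosome 6 (hg19). This rule used position alone and found 24 of the 17764 gene identifiers of the series, 17 in the first window and 7 in the second. They held 83 listed peaks in all, 61 and 22 by window, and 0 peaks of these identifiers lay outside the windows. The nearest peaks outside the windows, between positions 25985220 and 28055310, held 3 to 5 reads each, and the outermost peaks inside held 3 to 37.

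All 4 libraries came from Flp-In T-REx-293 cells, a human embryonic kidney line with a single integration site for a transgene. The cells were polyclonal and carried FLAG-ZFR at that site. Doxycycline, at 1 µg/mL over 48 to 72 h, switched the transgene on, and crosslinking used 400 mJ/cm2 of UV light. There were 2 eCLIP libraries and 2 size-matched inputs, which are made from the same gel region without immunoprecipitation. The inputs carry the same tagged protein, so no library lacks it, and ZFR is expressed from the transgene. Whether replicates were grown as separate cultures is not stated in the labels. Any p-value across libraries then measures the spread between these libraries alone, which may be technical.

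Replication-dependent histone genes encode the linker histone H1 and the core histones H2A, H2B, H3 and H4 that package newly copied DNA. Their mRNAs are made in S phase, have no introns and no poly(A) tail, and end in a stem-loop that is bound by SLBP and cleaved with the help of the U7 snRNP. ZFR is known for its part in alternative splicing, so mRNAs that skip splicing form a class of their own for this protein. RefSeq's gene table for GRCh38.p14 lists 55 protein-coding histone genes on chromosome 6: 6 of H1, 12 of H2A, 15 of H2B, 10 of H3 and 12 of H4. Their median length is 489 bases, and 50 of the 55 are no longer than 2000 bases. The table holds 0 Ensembl identifiers and follows another build, and the peak files pair no name with an identifier. The histone family of each gene was therefore not assigned. Genes are called here locus 1 to locus 24, in order along the chromosome. No hg19 sequence was used, so no sequence of a peak is shown. Histone genes of a family are close copies of each other, and how reads that match several copies were treated is not given in the sources used here, so a peak's assignment among copies is uncertain.

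For eCLIP the full lists ran to 479308 and 41904 peaks, and for the inputs to 63068 and 11204. The number at the end of each peak's name, of at least 3, was taken for its read count, although no header says so. These reads came to 3075352 and 229647 in eCLIP and to 249245 and 102084 in the inputs. A list holds only peaks that passed the authors' calling, with a p-value of at most 0.05, so a gene without a listed peak is not a gene without reads. Whole libraries were not counted here, and depth is unknown.

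In the histone windows, eCLIP replicate 1 listed 53 peaks with 689 reads and eCLIP replicate 2 listed 1 peak with 3 reads. Input replicate 1 listed 26 peaks with 106 reads and input replicate 2 listed 3 peaks with 20 reads. As a share of each list this was 1.11 peaks per 10000 (95% Wilson interval 0.845 to 1.45) in eCLIP replicate 1 and 0.239 (0.0421 to 1.35) in eCLIP replicate 2. The inputs stood at 4.12 (2.81 to 6.04) and 2.68 (0.911 to 7.87). These intervals cover counting error only. Both eCLIP shares thus lay below both input shares. The mean was 0.672 ± 0.613 (SD, n = 2) in eCLIP and 3.40 ± 1.02 (SD, n = 2) in the inputs, a log2 ratio of -2.34. An exact permutation test of the log2 shares over the 4 libraries gave a two-sided p of 0.333, the smallest that 2 against 2 can give, so the difference cannot pass a threshold of 0.05 in this design.

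The lower eCLIP share did not hold for all measures. Per 10000 reads in peaks, 2.24 and 0.131 lay in the windows for eCLIP, in the order of the replicate numbers, and 4.25 and 1.96 for the inputs. Here eCLIP replicate 1 lay above input replicate 2, and the groups overlapped (log2 ratio of means -1.39, exact permutation test, two-sided p = 0.667). When each list was limited to its 11204 best-ranked peaks, the length of the shortest list, the windows took 7.14 per 10000 in eCLIP replicate 1, 0 in eCLIP replicate 2, and 5.36 and 2.68 in the inputs. In lists of equal length eCLIP replicate 1 was therefore the highest of the 4 and eCLIP replicate 2 the lowest, and the log2 ratio of means was -0.17. Without eCLIP replicate 1 the ratio for the full lists was -3.83, a value that rests on 1 peak of eCLIP replicate 2, and without eCLIP replicate 2 it was -1.62.

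**Figure D1:**
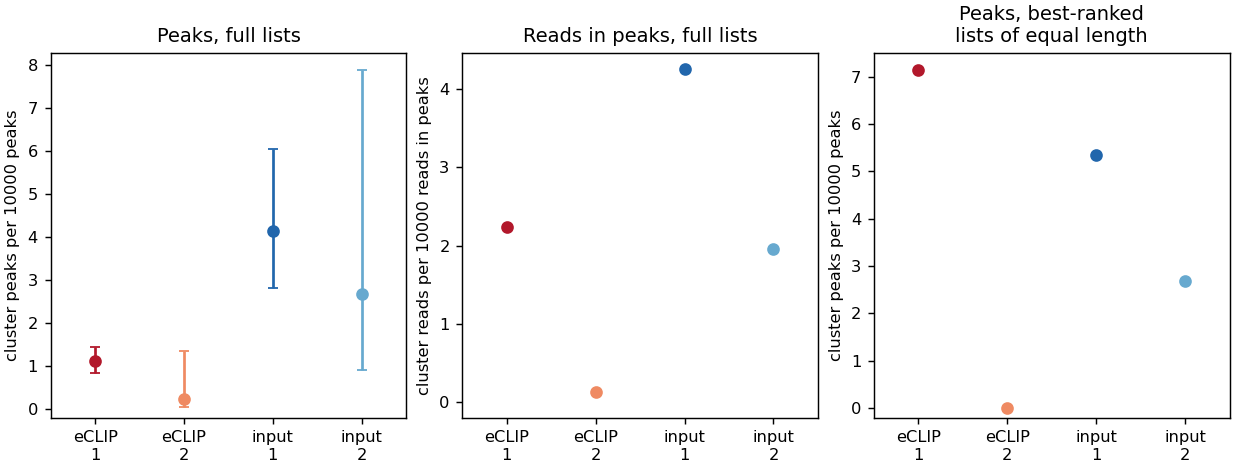
Share of each library taken by the histone windows, as peaks per 10000 listed peaks (left, bars are 95% Wilson intervals), as reads per 10000 reads in peaks (middle) and as peaks per 10000 in lists of equal length (right); each point is 1 library. Both eCLIP libraries (1.11 and 0.239) sit below both inputs (4.12 and 2.68) on the left, while on the right eCLIP replicate 1 is the highest at 7.14.

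The strands differed in how much of this they carried. On the plus strand the windows held 33 and 0 peaks in eCLIP and 6 and 2 in the inputs. On the minus strand they held 20 and 1 against 20 and 1. Of the 18 distinct minus-strand intervals of input replicate 1, 6 began where the one before ended, so that 1 region can be listed as several peaks. With touching and overlapping peaks merged over the whole list, input replicate 1 held 18 regions in the windows and eCLIP replicate 1 held 49, and the log2 ratio was -2.40. As a share of the peaks of each strand, the ratio was -2.13 on the plus strand and -2.42 on the minus strand.

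A peak was listed in eCLIP for 21 of the 24 loci and in the inputs for 14. In both kinds of library 11 were found, which is 52.4% of the eCLIP loci and 78.6% of the input loci. No like shares over all genes are given here for these 2 values. Of the 24 loci, 10 had peaks in eCLIP only and 3 in the inputs only. Over all genes, 29.4% had peaks in eCLIP only and 9.73% in the inputs only, and eCLIP replicate 1 has by far the longest list. eCLIP replicate 1 listed 21 loci, eCLIP replicate 2 listed 1, input replicate 1 listed 13 and input replicate 2 listed 3. Over all genes of the series, 89.2%, 43.5%, 63.5% and 33.2% had a peak in these libraries in the same order. No locus had a peak in all 4 libraries, and 3 loci (10, 16 and 17) had one in 3.

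**Figure D2:**
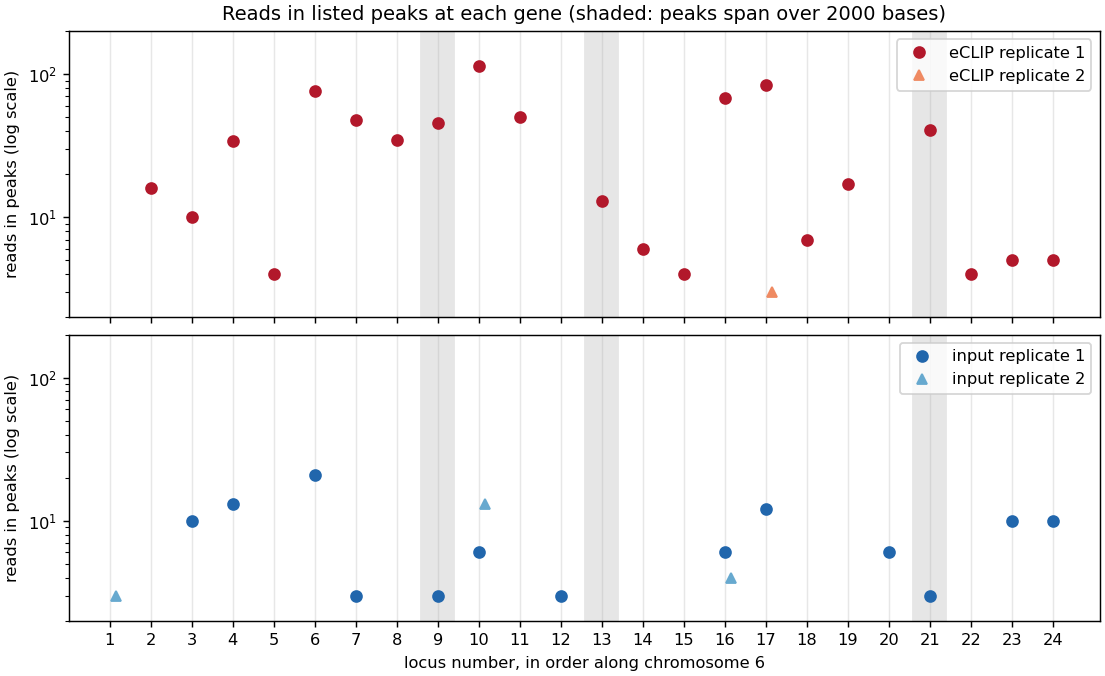
Reads in the listed peaks of each of the 24 loci, in order along chromosome 6, for the eCLIP libraries (top) and the inputs (bottom) on a log scale; loci without a listed peak have no point, and the 3 loci whose peaks span over 2000 bases are shaded. The highest locus, at 115 reads in eCLIP replicate 1, is locus 10, and eCLIP replicate 2 has its only point, of 3 reads, at locus 17.

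The stretch that a gene's peaks cover from end to end, over the 4 libraries, was used to check the label of genes without introns. For 21 loci it was 13 to 600 bases, with a median of 44, where the median histone gene length in RefSeq is 489 bases. Where a locus had 1 peak, this was the width of that peak and says nothing of introns. For 3 loci it was over 2000 bases: 10429 at locus 9, 12676 at locus 21 and 2108 at locus 13. Under these 3 identifiers the files thus list peaks far beyond a short histone mRNA, and with no exon annotation used here the class without introns cannot be taken to cover them. The 21 compact loci held 33 and 1 peaks in eCLIP and 24 and 3 in the inputs, which is 0.688 and 0.239 per 10000 peaks against 3.81 and 2.68. The mean was 0.464 ± 0.318 (SD, n = 2) in eCLIP and 3.24 ± 0.797 (SD, n = 2) in the inputs (log2 ratio -2.81, exact permutation test, two-sided p = 0.333). A low share in eCLIP replicate 1 was not particular to the histone loci. All 5288 compact genes elsewhere together took 125 and 216 peaks per 10000 in eCLIP and 348 and 1116 in the inputs, the same order of groups. A gene with few peaks is compact by this measure, and the shorter lists give few peaks per gene. Among compact genes elsewhere with at least 5 peaks the order did not hold: they took 32.0 and 92.8 per 10000 in eCLIP and 72.3 and 238 in the inputs.

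Of the 21 peaks with over 10 reads in eCLIP replicate 1, 20 lay at the compact loci. In eCLIP replicate 1 their 33 peaks had a median of 14 reads, and 60.6% (43.7 to 75.3) had over 10 reads, against a median of 4 reads and 8.36% over 10 in the whole list. The 20 peaks of the 3 wide loci had a median of 3.5 reads, and 1 of them had over 10. The split by width is not independent of reads, since loci 9 and 21 are wide through scattered peaks of 3 to 5 reads in eCLIP replicate 1. Lower reads at the wide loci thus follow in part from how they were defined. The contrast with the whole list is smaller against genes of like span. Among compact genes elsewhere 20.5% of the eCLIP replicate 1 peaks had over 10 reads, and among those with at least 5 peaks 45.8% did, with a median of 9. In the 4 compact histone loci with at least 5 peaks, 10 of 12 did (83.3%, 55.2 to 95.3), with a median of 15.5. In input replicate 1, 0 of the 24 compact-locus peaks had over 10 reads, with a median of 4 and a highest value of 6, and 1 of 3 did in input replicate 2. The 5 loci with most reads in eCLIP replicate 1 (loci 10, 17, 6, 16 and 11) held 394 of its 689 reads, or 57.2%.

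Locus 10, on the plus strand from 26156586 to 26156721 (ENSG00000168298.4), held the highest peak of the windows. Its eCLIP peaks carried 115 reads, all from eCLIP replicate 1, with 0 in the other, against 6 in input replicate 1 and 13 in input replicate 2. By peaks per 10000 the eCLIP libraries (0.0417 and 0) lay below both inputs (0.159 and 0.893). Each input value is 1 peak, while the 2 peaks of eCLIP replicate 1 are set over a list of 479308. The order against eCLIP replicate 1 thus depends on list length and says little of the locus. By reads per 10000 they stood at 0.374 and 0, against 0.241 and 1.27, so the groups overlapped. The peak of 90 reads, at positions 26156586 to 26156660, nearly coincided with the 13-read peak of input replicate 2 at 26156591 to 26156662. The next, of 25 reads at 26156683 to 26156703, met the 6-read peak of input replicate 1 at 26156687 to 26156721. At this locus each eCLIP peak thus had an input peak at the same place.

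Locus 17, on the minus strand from 26285366 to 26285746 (ENSG00000158406.2), was the only locus with a peak in both eCLIP libraries. It held 84 reads in 4 peaks of eCLIP replicate 1, 3 reads in 1 peak of eCLIP replicate 2, 12 reads in 3 peaks of input replicate 1 and 0 peaks in input replicate 2. The strongest peak, of 37 reads at 26285673 to 26285746, lay at the 5′ end and overlapped the eCLIP replicate 2 peak at 26285714 to 26285729. The position that the authors give inside the peak was 26285720 in both libraries. No input peak overlapped it: those of input replicate 1 began 172 bases from the 5′ base of the locus, and each held 4 reads. The authors' p-value for this peak was 2.54e-29 in eCLIP replicate 1 and 0.0207 in eCLIP replicate 2.

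Locus 6, on the minus strand from 26056064 to 26056663, held 77 reads in 2 peaks of eCLIP replicate 1 and 21 reads in 5 peaks of input replicate 1, with no peak in either library numbered 2. By reads per 10000 it stood lower in eCLIP replicate 1 (0.250) than in input replicate 1 (0.843). Of the 77 reads, 64 lay in the peak over the first 50 bases of the locus, and none of the 5 input peaks, of 4 or 5 reads each, overlapped an eCLIP peak. Locus 16, on the plus strand from 26204862 to 26205436 (ENSG00000198518.5), held 68 reads in 4 peaks of eCLIP replicate 1, 0 in eCLIP replicate 2, 6 in 2 peaks of input replicate 1 and 4 in 1 peak of input replicate 2. Its eCLIP peaks of 23, 14, 17 and 14 reads ran from the 5′ base to base 332 of the locus, and the third of them overlapped a peak of each input. By peaks and by reads per 10000, both eCLIP libraries lay below both inputs at locus 16: by reads, 0.221 and 0 against 0.241 and 0.392. By peaks, the order against eCLIP replicate 1 again depends on its much longer list.

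Locus 7, on the plus strand from 26104173 to 26104394, held 48 reads in eCLIP replicate 1 and 3 in input replicate 1, which is 0.156 and 0.120 per 10000 reads. Its 3 eCLIP peaks were nearly even, at 16, 17 and 15 reads, and the input peak overlapped none of them. Locus 8, on the minus strand from 26123712 to 26124141, was listed in eCLIP replicate 1 only, with 35 reads in 4 peaks, of which the peak at the 5′ end had 15. Locus 11, on the plus strand from 26158358 to 26158523, is named because of its values: its 50 reads in 2 peaks of eCLIP replicate 1 had no input peak. Its 36-read peak had the lowest p-value of the windows, 4.82e-36, below the 1.08e-23 of the 90-read peak at locus 10. The authors' p-value therefore does not follow the reads of a peak alone.

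**Figure D3:**
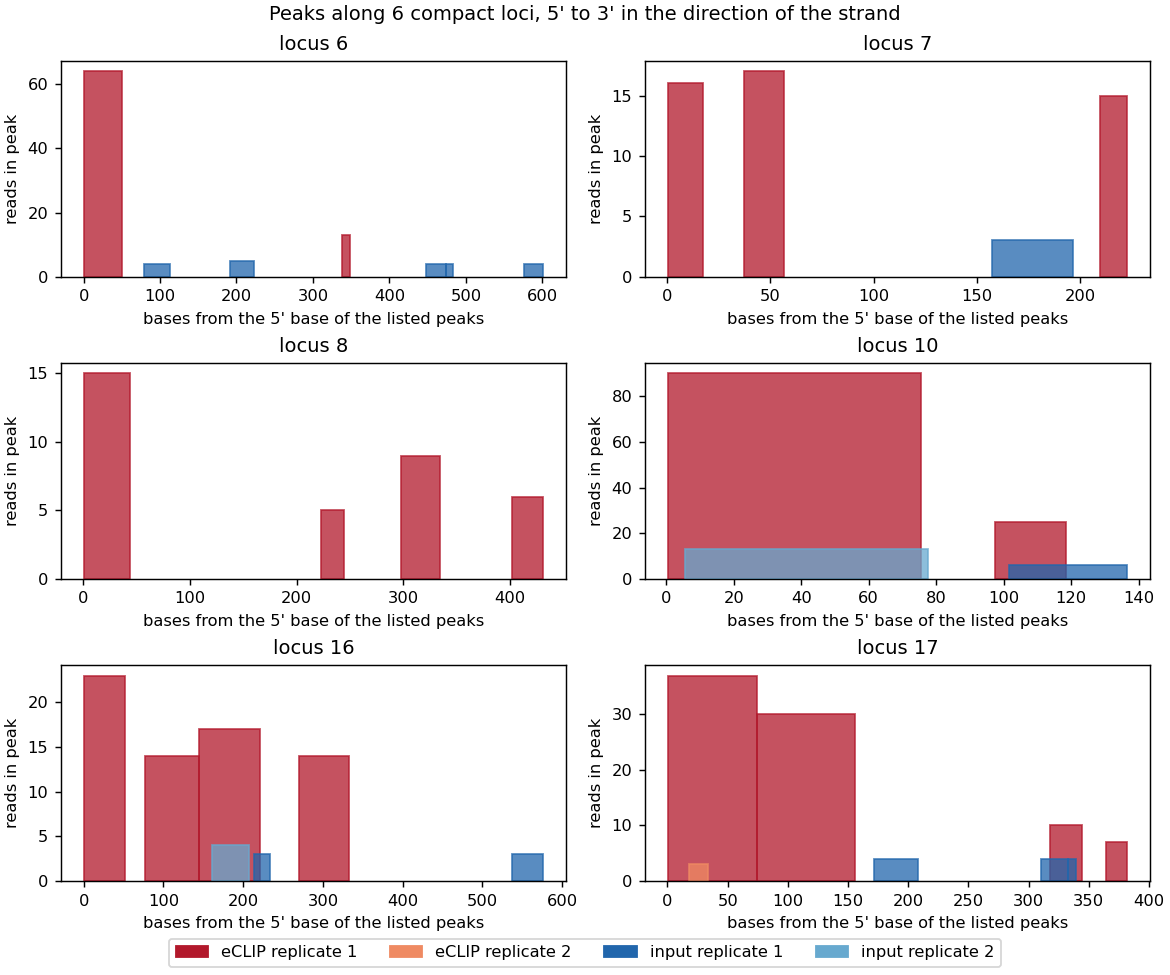
Listed peaks along 6 compact loci in the direction of transcription; the width of a bar is the peak, its height the reads in the peak, and its colour the library. In loci 6, 8, 10, 16 and 17 the first bar from the 5′ end is the highest, and at locus 7 the 3 eCLIP peaks hold 16, 17 and 15 reads.

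The other compact loci held fewer reads in eCLIP replicate 1 than the loci above. Locus 4, on the minus strand from 26031941 to 26032124, held 34 reads in eCLIP replicate 1 and 13 in input replicate 1, and its stronger eCLIP peak, of 21 reads, lay at the 3′ side. By reads per 10000, locus 4 stood at 0.111 in eCLIP replicate 1 and 0.522 in input replicate 1. Locus 3, on the minus strand from 26027126 to 26027154, held 10 reads in 1 peak of eCLIP replicate 1 and 10 reads in 2 touching peaks of input replicate 1 that covered it. Loci 23 and 24, both on the minus strand from 27860813 to 27860856, are the same intervals listed under 2 overlapping identifiers, with 5 reads in eCLIP replicate 1 and 10 in input replicate 1 for each. Loci 1, 12 and 20 had input peaks only, of 3 reads each. The 7 remaining compact loci (2, 5, 14, 15, 18, 19 and 22) each had 1 peak, in eCLIP replicate 1, of 4 to 17 reads. The peak of locus 14 lies inside a peak of locus 13.

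The wide loci looked different along their length. Locus 9, on the plus strand from 26124440 to 26134868, held 46 reads in 8 peaks of eCLIP replicate 1 and 3 reads in 1 peak of input replicate 1. Its first 3 peaks, within 453 bases of the 5′ base, had 14, 10 and 6 reads, and the 5 that followed, out to base 10429, had 3 or 4. Locus 21, on the plus strand from 27806420 to 27819095 (ENSG00000233822.2), held 41 reads in 10 peaks of eCLIP replicate 1 and 3 reads in 1 peak of input replicate 1. Its first peak had 10 reads, and the other 9, out to base 12676, had 3 to 5. Locus 13, on the minus strand from 26197131 to 26199238, held 13 reads in 2 peaks of eCLIP replicate 1 at its ends. A short stretch with the higher peaks at the 5′ end was thus followed, in loci 9 and 21, by scattered peaks near the minimum of 3 reads.

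**Figure D4:**
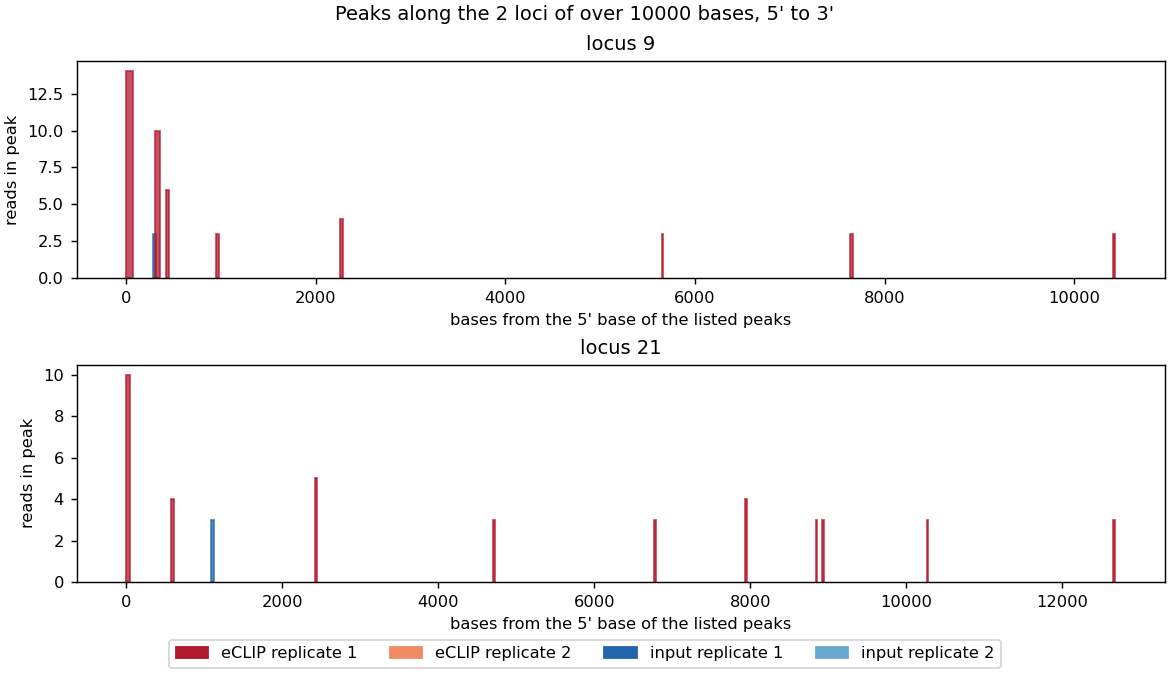
Listed peaks along loci 9 and 21 in the direction of transcription, with reads in the peak as height and the library as colour. The highest peak of each, 14 and 10 reads, lies at the 5′ base, and peaks of 3 to 5 reads are scattered out to bases 10429 and 12676.

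The strongest eCLIP peak mostly lay at the 5′ end, a pattern noticed in these data. Of 11 loci with at least 2 peaks in eCLIP replicate 1, 9 (81.8%) had their strongest peak first from the 5′ end and 1 had it last. The 11 include the 3 wide loci, all 3 with it first, and among the 8 compact loci 6 (75%) had it first. At locus 13 this first peak contains the only peak of locus 14. Over all 12804 genes with at least 2 peaks there, the share was 9.49%, and over the 1107 compact genes elsewhere it was 28.2%, with 23.6% last. Genes whose top value was shared by several peaks count here as neither first nor last. None of the 11 histone loci had such a tie, while 351 of the compact genes elsewhere and 3417 of all genes did. Without them, the strongest peak came first in 41.3% of 756 compact genes elsewhere and in 12.9% of 9387 genes in all. With the strongest peak required to have over 10 reads, 7 of 9 histone loci had it first, against 7.56% of all genes and 32.0% of 275 compact genes elsewhere. Of the compact histone loci among these, 6 of 8 had it first. These shares also depend on the number of peaks in a gene. With at least 2 peaks, 1 over that number averaged 34.6% for the 11 loci, 38.5% for the 8 compact ones, 13.0% for all genes and 39.5% for compact genes elsewhere. Loci 4 and 7 were the 2 exceptions among the 11. In input replicate 1, 5 of the 8 loci with at least 2 peaks had tied top peaks, and of the other 3 (loci 3, 4 and 6) 2 had the strongest first, so the input cannot be set against eCLIP here. The 5′ end here is the first base of any listed peak and not an annotated transcription start, and eCLIP replicate 2, with 1 peak, cannot show whether the pattern repeats.

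The mean position of reads, weighted by the reads in each peak, did not differ from the rest of the series in the same way. Of 11 loci with peaks in both eCLIP replicate 1 and input replicate 1, the eCLIP position was nearer the 5′ end in 7. Over all genes with both this held for 57.7%, and over the compact genes elsewhere for 62.4%, so the count at the histone loci is near the background. The 4 loci where it did not hold were the wide loci 9 and 21 and the loci 3 and 4. Median distances from the 5′ base were 87.1 bases for eCLIP and 177 for the input, over loci of very different span. Loci 23 and 24 enter this count with the same intervals.

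Peaks that met a peak of another library were counted with at least 1 shared base on the same strand. Of the 53 eCLIP replicate 1 peaks in the windows, 9 (16.98%, 9.20 to 29.2) overlapped a peak of either input, against 1.95% over the whole list and 13.7% in compact genes elsewhere, which lies inside the interval. At the compact loci alone, 8 of 33 (24.2%, 12.8 to 41.0) did. Of the 53, only 1 (1.89%, 0.334 to 9.94) was found again in eCLIP replicate 2 and in neither input, against 2.52% over the whole list, and this is the 37-read peak of locus 17. Among peaks of 10 reads or fewer, 5 of 32 (15.6%, 6.86 to 31.8) met an input peak, against 1.22% of all such peaks and 4.52% of those in compact genes elsewhere. Among peaks with over 10 reads, 4 of 21 (19.0%, 7.67 to 40.0) did, against 9.89% of all such peaks and 49.3% of those in compact genes elsewhere. The likeness to compact genes elsewhere over all reads thus mixes gaps in opposite directions. In the same class, 1 of 21 (4.76%, 0.846 to 22.7) met a peak of eCLIP replicate 2, against 17.1% of all and 45.4% (42.6 to 48.2) of those in compact genes elsewhere. These strong peaks were chosen by their reads in eCLIP replicate 1 alone, and reads were not matched: the highest peak has 90 reads at the histone loci and 2029 in compact genes elsewhere. The difference between these shares was not tested. These intervals treat peaks as independent, although peaks of a locus share its RNA. Of 10 histone loci with 30 to 115 reads in eCLIP replicate 1, 1 (10%, 1.79 to 40.4) had a peak in eCLIP replicate 2. Of genes in that range, 47.9% of 311 compact genes elsewhere and 47.1% of all 4053 did. In input replicate 1, 8 of the 10 loci had a peak, against 51.8% and 71.2%. In input replicate 2, 2 did, against 34.1% and 24.3%. The 10 loci are not all compact: they include the wide loci 9 and 21, both with a peak in input replicate 1 and in neither library numbered 2. These differences were not tested either. From the other side, 10 of the 26 input replicate 1 peaks (38.5%, 22.4 to 57.5) overlapped an eCLIP replicate 1 peak, against 12.8% of that whole list and 25.8% in compact genes elsewhere, the latter inside the interval. None of the 26 (0 to 12.9%) overlapped a peak of input replicate 2, against 3.43% of the whole list and 20.6% in compact genes elsewhere.

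**Figure D5:**
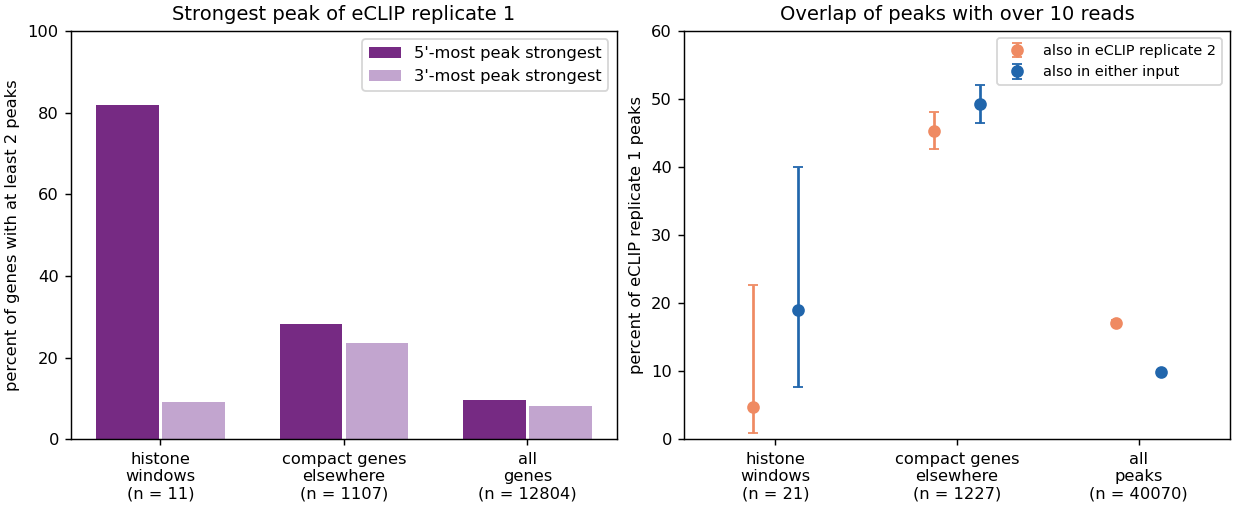
Left, percent of genes with at least 2 peaks in eCLIP replicate 1 whose strongest peak is the first or the last from the 5′ end, for 11 histone loci, 1107 compact genes elsewhere and all 12804 genes. Right, percent of eCLIP replicate 1 peaks with over 10 reads that overlap a peak of eCLIP replicate 2 or of either input, with 95% Wilson intervals. The 11 histone loci, 3 of them wide, reach 81.8% on the left, and on the right 1 of the 21 strong histone peaks was found in eCLIP replicate 2.

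No histone locus passed a test of its share between eCLIP and input. limma was fitted on log2(peaks per 10000 + 0.5) for the 8914 genes whose peaks summed to at least 10. It called 0 genes higher and 0 lower after Benjamini-Hochberg adjustment (0.0% each), with 112 higher and 62 lower at an unadjusted p under 0.05. This rests on single libraries: without eCLIP replicate 2 limma called 695 genes higher, and without input replicate 1 it called 5 lower, locus 21 not among them. Only locus 21 met that minimum, with 10 and 0 peaks in eCLIP and 1 and 0 in the inputs, and its log2 difference of eCLIP minus input was 0.05 (SE 0.35, limma adjusted p = 0.995). With all 17764 genes fitted, limma called 0 (0.0% in each direction), and 0 of the 24 loci had an unadjusted p under 0.05. In that fit 12 loci were above 0 and 12 below, with a median of -0.04 against 0.03 over all genes. The value added to each share exceeds the share of nearly every locus, so these differences are pulled towards 0. By the order of the shares alone, 13.3% of all genes had both eCLIP libraries above both inputs. The count of loci there, 0, says nothing of them, since 23 of the 24 have no peak in eCLIP replicate 2. Loci 10 and 16 had both below, where 9.39% of all genes did, and by reads locus 16 alone (9.17% of all genes). Lying below both inputs requires a peak in both inputs, and only loci 10 and 16 had one. The count of loci below both inputs thus says nothing of the other loci. By peaks, the input shares at loci 10 and 16 rest on 1 or 2 peaks each, in lists shorter than that of eCLIP replicate 1. Locus 21 separated in neither direction, where 21.1% of the genes with at least 10 peaks had both eCLIP libraries above both inputs and 10.2% had both below.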

How the data were processed

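Peak lists from 2 eCLIP and 2 size-matched input libraries were analysed, grouped by their titles. Per the submitters' processing notes, cutadapt, STAR and SAMtools were used with hg19. The sources used here do not name the peak caller, the annotation or tool versions. Each library's deposited list holds the authors' p-value of each peak and a score that is the whole part of 10 times its negative log10, capped, and 0 where the p-value is 0. The deposited name of each peak, a text field of another kind, ends in a number read as reads.

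Members, lists and tests were chosen with earlier results of these data known. Shares are per 10000 peaks, or reads in peaks, of a library. A locus is compact when its peaks span at most 2000 bases. The text names the 12 loci with most peaks and any locus with a peak in all 4 libraries; others are named for their values. limma 3.58.1 in R 4.3.3 (trend, Benjamini-Hochberg, threshold 0.05) was tested on simulated data. The simulated replicates differed by counting error only, so how well it finds changes between these libraries was not examined. Wilson intervals and exact permutation tests used scipy 1.17.1. Alternatives were a p-value limit of 0.001, lists of equal length, merged peaks, pseudocounts, filters, left-out libraries and the replicate number as a block.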

Additional observations from a re-analysis of the deposited data

How the results depend on the processing

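The share of peaks in the histone windows was lower in the eCLIP mean under each alternative run, but its size moved. The log2 ratio of -2.34 became -0.17 in lists of equal length and ranged from -3.83 to -1.62 with 1 library left out, the lowest without eCLIP replicate 1. At a p-value limit of 0.001 it was -1.36, where eCLIP replicate 1 stood at 2.69 per 10000 and input replicate 2 at 3.11. The share of reads ranged from -4.57 to -0.47 and that of the compact loci from -3.76 to -2.24 with 1 library left out. Limited to a p-value of 0.001, the ratio of reads was -0.09, with eCLIP replicate 1 (3.74 per 10000) above both inputs (2.24 and 1.73). The plus-strand, minus-strand and merged-read settings were chosen after seeing the data; by reads, the plus strand gave -0.84 and the minus strand -1.64.

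With the replicate number as a block, the mean log2 ratios within numbers were -2.69 for peaks, -2.42 for reads and -2.98 for the compact loci, and limma called 3 genes higher and 1 lower of 8914 but no histone locus. Deviations of same-numbered libraries from their group means correlated at 0.397 over genes, and 2 pairs cannot show that the numbers pair the samples. limma called 0 histone loci in each setting run, but only locus 21 was tested except with a minimum of 1 peak. Over all genes it called 695 higher without eCLIP replicate 2, 5 lower without input replicate 1, 1 lower without input replicate 2 and 0 without eCLIP replicate 1. Without eCLIP replicate 1 and without input replicate 2 the difference at locus 21 was -0.20 and -0.15 in place of 0.05, with a range of -0.20 to 0.30 over the libraries left out; the cause was not tested. Loci below both inputs numbered 0 of the 1 tested with at least 10 peaks and 2 of 24 with at least 1. The peak of locus 17 shared by the eCLIP libraries was lost at a p-value limit of 0.001, which left 0. No locus met a minimum of 20 peaks, or of 10 peaks at that limit.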
